A study of Mus musculus with 8 samples.

Results

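Small leucine-rich proteoglycans (SLRPs) were followed in RNA sequencing of cells labelled as satellite cells (SCs), the stem cells of muscle, from sedentary and treadmill-trained mice. The group was set as 8 named genes, Dcn, Bgn, Lum, Fmod, Ogn, Prelp, Aspn and Omd, taken by gene name, out of 52636 genes in the deposited table. There were 4 control libraries from untrained mice and 4 exercise libraries from mice that ran at 12 m per min for 30 min a day, 4 days a week, for 4 weeks. Per the study's methods, all mice were male C57B/6J aged 10 weeks when training began, with no other genotype or agent given for these groups. The cells were sorted as CD45-, CD11b-, CD31- and Sca1-, CD34+ and α7-integrin+. The general sorting methods name the tibialis anterior muscle, while the legend for the sequencing and the sample titles say skeletal muscle. A library was built from roughly 800 sorted cells with a kit made for single cells, and the study's figure legends count its replicates as mice. The labels do not tie a library to a mouse, so every p-value measures the spread between libraries, part of which may be technical.

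SLRPs are secreted proteins of the extracellular matrix. Their core is a curved stack of leucine-rich repeats that binds collagen, and most carry glycosaminoglycan chains, which are chondroitin or dermatan sulfate in class I (decorin, biglycan) and keratan sulfate in many of class II (lumican, fibromodulin). They set the thickness and spacing of collagen fibrils, and decorin and biglycan also bind growth factors such as TGF-β. In skeletal muscle they are known chiefly as products of the connective tissue cells around the fibres and of tendon.

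Expression is given as FPKM, reads divided by gene length and by a library size, and the reads behind each value could be recovered with the gene length in the table. Control libraries held 2339966 to 3013354 reads on genes and exercise libraries 1011737 to 1200221, on 5169 to 7307 and on 2348 to 3289 genes. Some libraries resembled others more than separate samples of a group did. Over genes, the reads of exercise 1 and 2 gave 3.86 as chi-square divided by its degrees of freedom, where other pairs within a group gave 82.6 to 711. Control 4 held genes found in control 1 and missing from control 3 at a median of 0.281 of their share, and those found in control 3 and missing from control 1 at 0.714, and exercise 3 held genes of exercise 1 and of exercise 4 at 0.299 and 0.677. The mitochondrial genome gave 50.2% (exercise 3) and 68.7% (exercise 4) of reads, against 2.09% to 15.3% elsewhere, and the FPKM total was 2488142 for exercise 4 but 331669 to 637095 elsewhere. Of 10 SC markers, Pax7, Cdh15, Calcr and Itga7 had no read in any library, among them the gene of the α7-integrin used in the sort, so these 4 defining markers did not bear out the label. Cd34, the other positive sort marker, had reads in all 8 libraries, at 0.12 to 1.48 FPKM in control and 1.90 to 9.63 in exercise, with no overlap (limma adjusted p = 0.0670). Cd34 and Sdc4 were the 2 SC markers that passed the filter, neither past the adjusted p threshold. Vcam1, Myf5, Chrdl2 and Cxcr4 had 99, 4, 5 and 2 reads over the control libraries and none in exercise. The 10 markers summed to 3.37 to 36.5 FPKM in control and 31.9 to 83.6 in exercise, most of it Sdc4.

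Promoter sequence is shown for the members whose profiles lay closest to each other, Prelp with Fmod and Bgn with Aspn, so that the pairs can be compared. RefSeq promoters on GRCm38.p6 matched 6 of the 8 members, and Dcn and Lum were not matched. Each line gives the 150 bases upstream of the RefSeq start on the gene's own strand, 5′ to 3′, with motif matches in capitals: Prelp at chr1:133921402-133921551 (minus strand), Fmod at chr1:134037104-134037253, Bgn at chrX:73483451-73483600 and Aspn at chr13:49544293-49544442 (plus strand).
Prelp: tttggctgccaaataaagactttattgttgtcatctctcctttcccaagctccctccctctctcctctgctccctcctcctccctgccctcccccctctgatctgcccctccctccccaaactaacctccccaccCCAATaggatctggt
Fmod: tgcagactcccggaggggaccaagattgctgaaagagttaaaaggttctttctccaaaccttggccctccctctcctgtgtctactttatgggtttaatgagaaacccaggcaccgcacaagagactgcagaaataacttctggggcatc
Bgn: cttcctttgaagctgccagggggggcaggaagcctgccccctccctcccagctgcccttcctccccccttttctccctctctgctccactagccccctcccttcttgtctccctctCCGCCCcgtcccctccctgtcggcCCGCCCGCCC
Aspn: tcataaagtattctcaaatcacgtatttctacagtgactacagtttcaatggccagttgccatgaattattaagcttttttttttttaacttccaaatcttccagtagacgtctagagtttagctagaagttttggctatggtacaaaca

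The motifs searched on both strands were the TATA box, spelled TATAAA, the CCAAT box, spelled as its name, and the GC box, spelled GGGCGG. Capitals mark 1 CCAAT in Prelp and 3 GC boxes on the minus strand of Bgn, of which the last pair overlaps. No motif matched in Fmod or Aspn. Among 32851 promoter windows of this length the TATA box was in 7.57%, the CCAAT box in 24.5% and the GC box in 28.6%. The paired genes shared no match, and base composition ran from 33.3% GC in Aspn to 70% in Bgn.

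Dcn encodes decorin, the class I proteoglycan that coats collagen fibrils. It was by far the most abundant member, at 1900.3, 1593, 1346 and 1243 FPKM in control 1 to 4 and at 1581, 1544, 1065 and 1504 in exercise 1 to 4. The groups overlapped: control 1 was the highest library and exercise 3 the lowest. Control averaged 1521 ± 293 FPKM and exercise 1424 ± 241 (SD, n = 4), for a fold change on the log2 scale of -0.09 (SE 0.42, limma adjusted p = 0.863). Its coefficient of variation over all 8 libraries was 17.2%, the lowest of the 7 members with reads, which otherwise ran from 49.6% in Fmod to 137% in Ogn. Among protein-coding genes ranked by FPKM, Dcn stood at 34 to 43 in control and at 28 to 64 in exercise. On the deposited scale most genes were lower in exercise, with a median log2 fold change of -1.42 over the 4328 genes tested, and Dcn lay 1.32 above that median. This distance was 0.23 with quantile normalization and 0.22 with no filter on low genes. The fold change was 0.02 without control 1, 0.04 without exercise 3 and -0.80 when every library was scaled to the same FPKM sum (adjusted p = 0.363).

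Lum encodes lumican, a class II member that regulates the assembly of collagen fibrils, best known from the cornea. Its level was 118, 123, 100.4 and 90.8 FPKM in control 1 to 4 and 450.3, 491, 311 and 532 in exercise 1 to 4. Every exercise library lay above every control library. Lum rose 4.13-fold in exercise, from 108 ± 15.04 FPKM (SD, n = 4) to 446 ± 96.1, a log2 fold change of 2.02 (SE 0.54, limma adjusted p = 0.0229; exact two-sided permutation p = 0.0286, the smallest that 4 against 4 allow). It was the only one of the 7 members tested that passed the threshold, and 8.78% of all genes tested were called higher in exercise and 26.8% lower. Members with every exercise library above every control library numbered 1 as well, where 7.62% of all genes tested were so placed, and no member had every exercise library below control, where 24.0% were. Among protein-coding genes Lum ranked 341 to 399 in control and 80 to 122 in exercise.

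**Figure D1:**
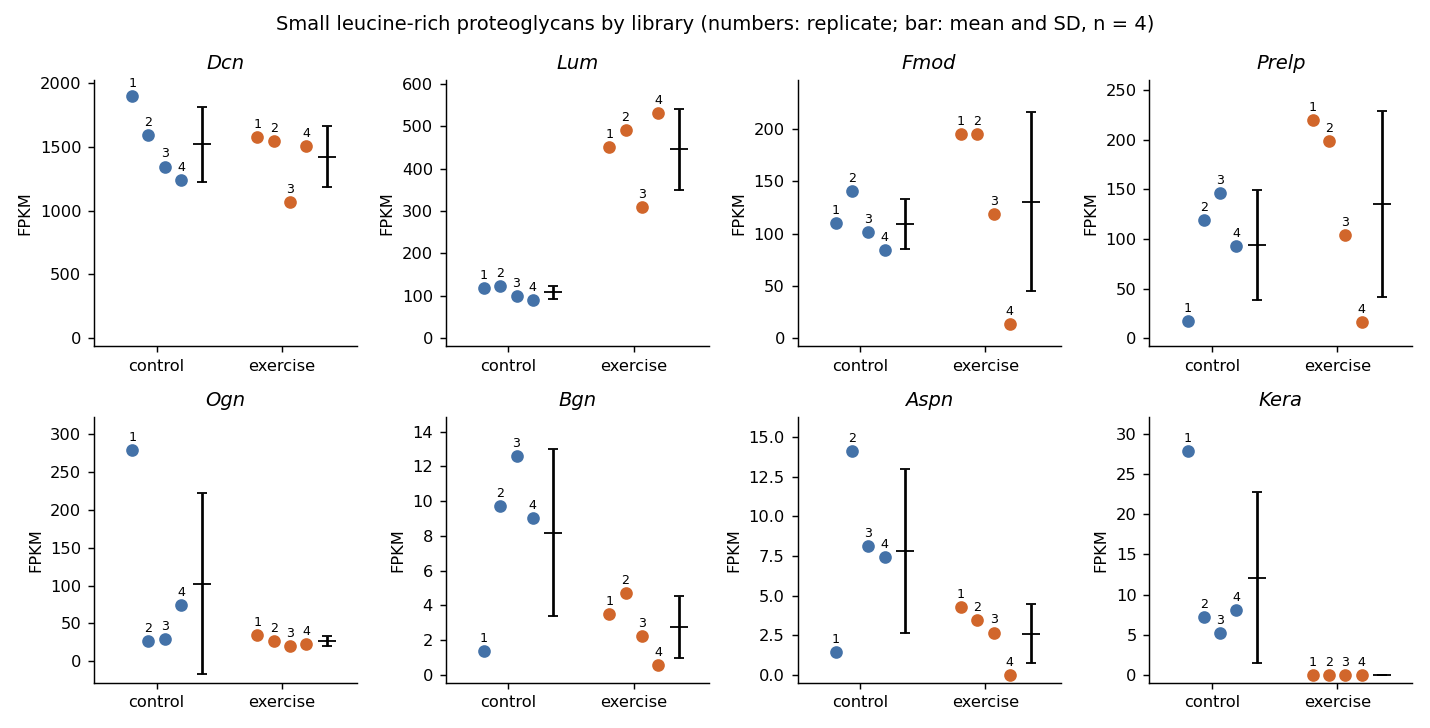
FPKM (vertical axes, linear, on each gene's own scale) of 7 members and of Kera in the 4 control (blue) and 4 exercise (orange) libraries, numbered by replicate, with black bars for the mean and SD. Lum lies at 90.8 to 123 in control and 311 to 532 in exercise, Dcn overlaps between the groups, and Kera is at 0 in every exercise library.

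The call of Lum changed with the libraries in the fit. The fold change stayed between 1.92 and 2.18 when each library was left out in turn, but the adjusted p passed 0.05 in 5 of these 8 fits (without control 3, without control 4 and without exercise 1, 2 or 3), at 0.0546 to 0.0808. Counting exercise 1 and 2 as 1 averaged sample gave 1.98 (adjusted p = 0.0751), dropping control 4 and exercise 3 as well gave 2.13 (adjusted p = 0.458, limma calling 0 genes in all, with 451 at an unadjusted p under 0.05), and setting every library to the same FPKM sum gave 1.31 (adjusted p = 0.179).

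The ratio of Lum to Dcn within a library cannot be moved by any scaling of libraries. Lum was at 6.22%, 7.71%, 7.45% and 7.31% of the FPKM of Dcn in control 1 to 4. In exercise 1 to 4 it was at 28.5%, 31.8%, 29.2% and 35.3%. The groups were far apart and each was narrow, with a control mean of 7.17% ± 0.66 and an exercise mean of 31.2% ± 3.11 (SD, n = 4), 4.35-fold apart (exact two-sided permutation p = 0.0286, and 0.171 after Benjamini-Hochberg adjustment over the 6 ratios computed, which does not pass 0.05). Of the 4327 other genes tested, 8.25% had a ratio to Dcn that was higher in every exercise library. The fold stayed at 4.16 to 4.47 with each library left out in turn (exact permutation p = 0.0571, and 3 against 4 libraries can go no lower), and was 4.40 when exercise 1 and 2 counted as 1 sample and 4.59 when control 4 and exercise 3 were dropped too, where 3 against 2 libraries allow no p below 0.2. Among the other 5 members with reads the ratio to Dcn overlapped between the groups in each case. In bulk libraries such as these, more cells of a type and more RNA per cell cannot be told apart.

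**Figure D2:**
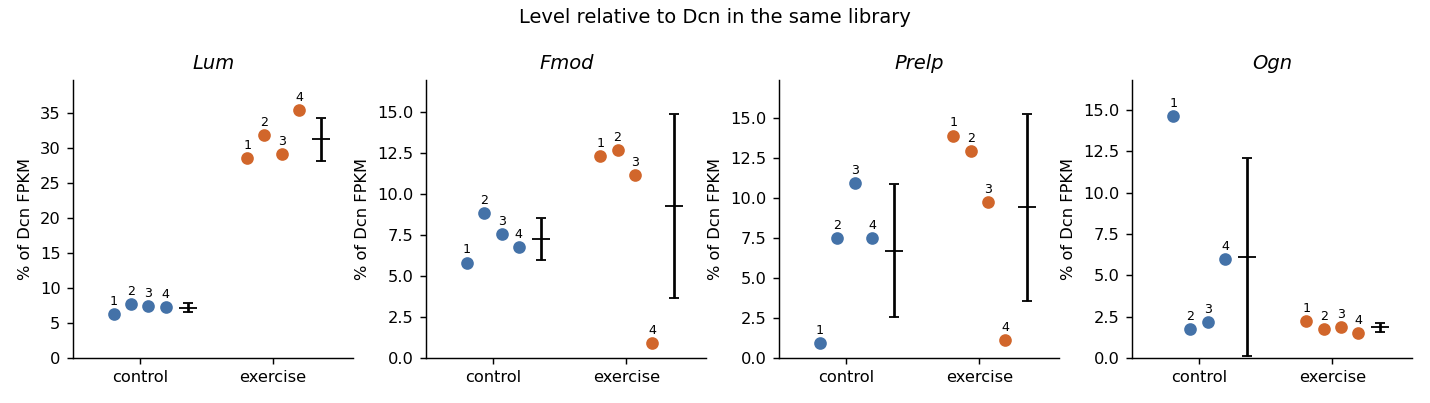
Level of 4 members as a percentage of the FPKM of Dcn in the same library (vertical axes, linear from 0), for 4 control (blue) and 4 exercise (orange) libraries numbered by replicate, with the mean and SD in black. Lum goes from 6.22–7.71% to 28.5–35.3%, while Fmod, Prelp and Ogn overlap between the groups.

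Fmod and Prelp encode fibromodulin and the proline- and arginine-rich protein prolargin, class II members that bind fibrillar collagen, of which prolargin also anchors basement membranes. Fmod had 111, 141, 101 and 84.1 FPKM in control 1 to 4 and 195, 195, 119 and 13.6 in exercise 1 to 4. Exercise 1 and 2 lay above every control, and exercise 4, with 13 reads, below every one. Control averaged 109 ± 23.8 FPKM and exercise 131 ± 85.9 (SD, n = 4), a ratio of means of 1.2. The log2 fold change, a difference of mean log values, had the opposite sign, at -0.26 (SE 0.90, limma adjusted p = 0.822). Without exercise 4 the fold change was 0.62 (adjusted p = 0.217), a change of sign.

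Prelp had 17.7, 119, 147 and 93.2 FPKM in control 1 to 4 and 219.7, 199, 104 and 16.3 in exercise 1 to 4. Here control 1 and exercise 4 were both low, at 147 and 17 reads, and the remaining libraries lay between 93.2 and 219.7. Control averaged 94.2 ± 55.5 FPKM and exercise 135 ± 93.7 (SD, n = 4), for a fold change on the log2 scale of 0.34 (SE 1.02, limma adjusted p = 0.793), which became -0.33 without control 1 (adjusted p = 0.79) and 1.16 without exercise 4 (adjusted p = 0.242). Neither gene passed the threshold in any setting tried.

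Ogn encodes osteoglycin, also called mimecan, a class III member found in bone and connective tissue. It had 278 FPKM in control 1, 27.4 in control 2, 29.1 in control 3 and 74.4 in control 4, and 35.0, 27.4, 19.7 and 23.0 in exercise 1 to 4. Control 1 stood far above the other libraries and control 4, which held genes of control 1 in part, came next, while control 2 and 3 lay within the range of the exercise libraries. Control averaged 102 ± 119 FPKM and exercise 26.2 ± 6.60 (SD, n = 4), for a fold change on the log2 scale of -1.29 (SE 0.85, limma adjusted p = 0.223). Without control 1 it was -0.59 (adjusted p = 0.411).

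Bgn encodes biglycan, the class I relative of decorin, and Aspn asporin, which lacks the chain attachment of the class and binds TGF-β. Bgn had 1.36, 9.74, 12.6 and 9.01 FPKM in control 1 to 4 and 3.53, 4.73, 2.22 and 0.569 in exercise 1 to 4. All exercise libraries were below control 2 to 4 but only exercise 4, with 1 read, was below control 1. Control averaged 8.18 ± 4.80 FPKM and exercise 2.76 ± 1.78 (SD, n = 4), for a fold change on the log2 scale of -1.18 (SE 0.78, limma adjusted p = 0.228). Without control 1 Bgn was called lower, by -1.75 (adjusted p = 0.0335), and with quantile normalization its change was 0.23 (adjusted p = 0.832).

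In Aspn control 2 to 4 were likewise above every exercise library and control 1 was not. It had 1.48, 14.1, 8.16 and 7.46 FPKM in control 1 to 4 and 4.32, 3.46 and 2.68 in exercise 1 to 3. No read fell on it in exercise 4, which allows up to 4.42 FPKM (3 reads, counting error only), above exercise 1 to 3. A lower level there was therefore not detectable, since 1 read stands for more FPKM in exercise 4 than in any other library. Control averaged 7.81 ± 5.18 FPKM and exercise 2.62 ± 1.87 (SD, n = 4), for a fold change on the log2 scale of -1.27 (SE 0.82, limma adjusted p = 0.219), and 0.03 with quantile normalization. Omd, which encodes osteomodulin, a keratan sulfate proteoglycan of bone, had no read in any of the 8 libraries and was not tested.

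In order of mean level, the control libraries had Dcn first, then Fmod, Lum, Ogn and Prelp at 109, 108, 102 and 94.2 FPKM, whose SDs overlap, and then Bgn and Aspn at 8.18 and 7.81. The exercise libraries had Dcn, then Lum at 446, Prelp and Fmod at 135 and 131, Ogn at 26.2, and Bgn and Aspn at 2.76 and 2.62. In exercise the range of Lum lay above those of Prelp and Fmod, while Prelp and Fmod, and Bgn and Aspn, did not differ beyond their spread in either group. The FPKM of the 8 members summed to 1602 to 2428 in control and 1623 to 2488 in exercise. Dcn made up 77.2% to 78.6% of that sum in control and 62.6% to 72.0% in exercise, and Lum 4.87% to 6.06% and 18.1% to 25.4%.

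**Figure D3:**
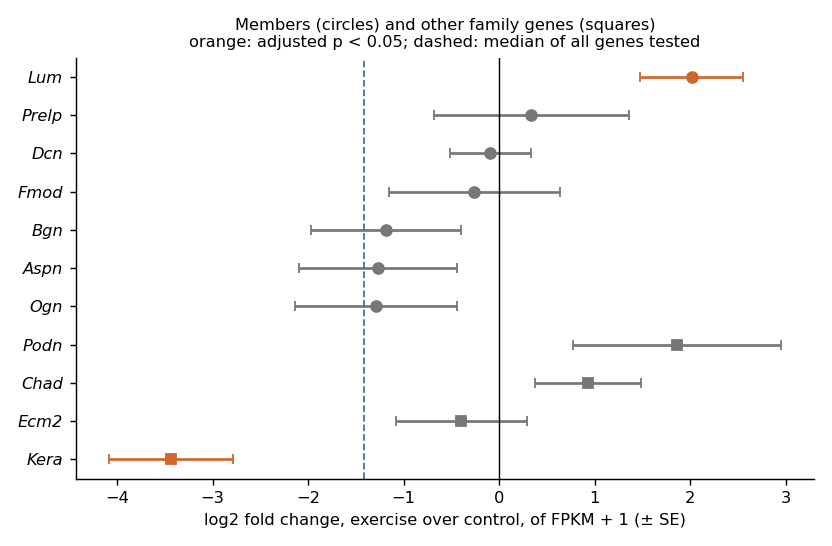
Log2 fold change of FPKM + 1 (horizontal axis, exercise over control, bars show the SE) for the 7 members tested (circles) and 4 other family genes (squares), with an adjusted p under 0.05 in orange and the median of all genes tested (-1.42) dashed. Lum (2.02) and Kera (-3.43) are the 2 genes past the threshold, and the other members lie between -1.29 and 0.34.

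Many genes of the family lie beside each other. Differences between neighbours were not tested. Positions were the same in the table and in the GENCODE annotation of GRCm38. On chromosome 10, Dcn (97479609 to 97518143), Lum (97565128 to 97572703) and Kera (97606879 to 97613692) follow one another on the plus strand, with Epyc (97644068 to 97682454) after them. Kera encodes keratocan, a class II proteoglycan of cornea and tendon, and lies 34.2 kb from Lum. It had 27.9, 7.16, 5.28 and 8.15 FPKM in control 1 to 4 and no read in any exercise library. A count of 0 allowed 0.787, 0.825, 1.19 and 4.57 FPKM in exercise 1 to 4, all below the lowest control. With exercise libraries set to 3 reads each, mean Kera was at least 6.59-fold lower in exercise, a bound of 3.73-fold once control 1 was left out. The fitted log2 fold change of -3.43 (SE 0.65, limma adjusted p = 0.00577) depends on the pseudocount. Kera was called lower in 17 of 18 other settings, the exception being the fit with exercise 1 and 2 averaged and without control 4 and exercise 3 (adjusted p = 0.446). Epyc had no read.

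On chromosome 13, Ecm2 (49504810 to 49532789), Aspn (49544443 to 49567565), Omd (49582462 to 49592822) and Ogn (49608046 to 49624501) share the plus strand within 119.7 kb. Ecm2, an extracellular matrix protein with leucine-rich repeats, had a control mean of 7.79 ± 3.55 FPKM and an exercise mean of 5.98 ± 3.01 (SD, n = 4) (limma adjusted p = 0.644). Omd, without a read, lies between 2 genes with reads. Cenpp, a centromere gene on the minus strand, overlaps Aspn, Omd and Ogn, its exons overlap those of Aspn, and it had no read.

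On chromosome 1, Prelp (133910304 to 133921414, minus strand) and Fmod (134037254 to 134048277, plus strand) are 115.8 kb apart, and Optc, 2.31 kb from Prelp, had no read. An antisense gene, Gm15851, overlaps exons of Prelp and had no read. Bgn is on chromosome X (73483602 to 73495933).

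**Figure D4:**
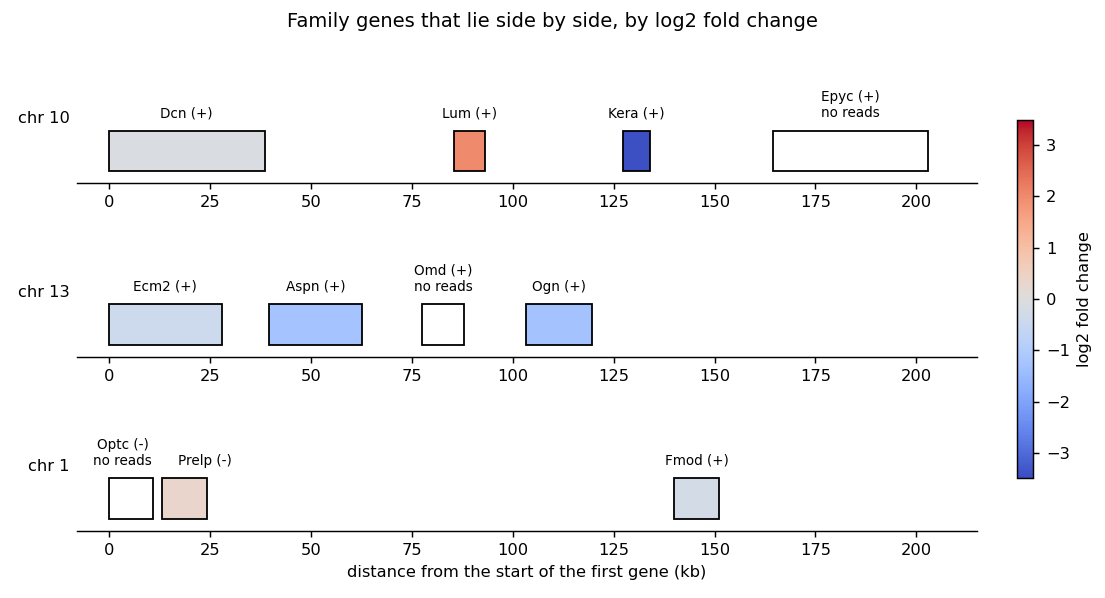
Family genes on chromosomes 10, 13 and 1 drawn to scale as boxes by distance from the start of the first gene (kb), coloured by log2 fold change of exercise over control, white for genes with no read. Lum (2.02) lies between Dcn (-0.09) and Kera (-3.43), and Omd without reads between Aspn (-1.27) and Ogn (-1.29).

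Of 11 other genes of the leucine-rich proteoglycan family, 5 had a read and 4 were tested, of which 1 (Kera) fell and none rose, a share near the 26.8% of all genes called lower, with a median log2 fold change of 0.27 against -1.42 over all genes tested. Chad, chondroadherin of cartilage, had 102, 138, 167 and 141 FPKM in control 1 to 4 and 328, 320.1, 208 and 202 in exercise 1 to 4. Its groups did not overlap (exact permutation p = 0.0286), but the log2 fold change of 0.93 (SE 0.55, limma adjusted p = 0.183) did not pass the threshold. Podn, podocan, had 1.63, 4.82, 5.52 and 5.41 FPKM in control 1 to 4 and 43.6, 54.0, 24.1 and 0.813 in exercise 1 to 4. Exercise 1 to 3 were above every control and exercise 4, with 1 read, below every one, and the log2 fold change of 1.86 (SE 1.09, limma adjusted p = 0.177) was 2.97 without exercise 4 (adjusted p = 0.0060) and 3.38 with quantile normalization (adjusted p = 0.0373).

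Of 10 collagens that carry or bind SLRPs, 9 were tested, with a median log2 fold change of -0.12, and Col1a2, Col5a2 and Col14a1 fell and none rose, where 26.8% of all genes tested were called lower and 8.78% higher. Col1a2, a chain of collagen I, had 972, 648, 388 and 454 FPKM in control 1 to 4 and 157, 153, 80.8 and 20.7 in exercise 1 to 4. It was lower in every exercise library, by a log2 fold change of -2.84 (SE 0.77, limma adjusted p = 0.0246), while Lum was higher in the same libraries. Col1a1, the other chain of collagen I, named after its values were seen, had 55.3, 19.3, 16.6 and 19.6 FPKM in control 1 to 4 and 94.4, 85.8, 47.3 and 11.1 in exercise 1 to 4, with overlap and a log2 fold change of 0.89 (SE 0.85, limma adjusted p = 0.396). Of 23 enzymes that build glycosaminoglycan chains, 9 had a read, 8 of them in control and 3 in exercise, where 9029 genes of all kinds had a read and 8407 of them had one in control and 4300 in exercise. Of the 5 tested, B3gat3, which completes the linker to the core protein, and Csgalnact1, which starts chondroitin chains, fell and none rose, and both were at 0 in control 1 as in all exercise libraries. Of 18 ligands, receptors and proteases, 7 were tested and Adamts5, a protease that cuts proteoglycans, fell, with no read in exercise, and none rose. Counts this small lie near those background shares. Tgfb1, Tgfb2, Tgfb3 and Tgfbr1 had reads in control only, at means of at most 1.17 FPKM and below the filter.

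Markers of other cell types went both ways, and their counts are to be read against the 8.78% of all genes called higher and 26.8% called lower. All 12 markers of fibro-adipogenic progenitors had a read, 11 of them in control and 9 in exercise (8407 and 4300 of 9029 genes of all kinds). Dpp4, Pi16 and Cd248 had none in exercise. The 12 markers summed to 1738 to 2696 FPKM in control and 1967 to 8911 in exercise, most of it Gsn. Of 9 tested, Clec3b and Gsn rose while Mfap5 fell. Fibro-adipogenic progenitors carry Sca1, against which the sort selected. Ly6a, the gene of Sca1 and 1 of the 12 markers, had 59 reads over the control libraries and 26 over the exercise libraries, in 6 of the 8 libraries. Pdgfra, their defining receptor, had 9.44, 35.0, 20.6 and 16.2 FPKM in control 1 to 4 and 7.99, 6.88, 4.95 and 2.42 in exercise 1 to 4. Pdgfra was thus lower in every exercise library, as were 24.0% of all genes tested. Its log2 fold change of -1.65 (limma adjusted p = 0.0840) did not pass the threshold. All 8 tendon markers had a read, 6 of them in exercise, and they summed to 449 to 966 FPKM in control and 229 to 1210.3 in exercise. Of 7 tested Scx rose, and Cilp2, Chodl and Kera fell. All 8 myofibre markers had a read, 7 of them in exercise. They summed to 26196 to 58175 FPKM in control and 15441 to 42283 in exercise, and Myh1 and Mb fell. Of 7 endothelial markers 3 had a read, and Pecam1, Cdh5, Emcn and Cldn5 had none. Kdr fell, with 0, 2994, 1669 and 1076 FPKM in control 1 to 4 and at most 0.530 in exercise, so that control 1 overlapped with exercise. Tek rose, with at most 1 read in a control library and 24.0, 25.8, 14.7 and 4.42 FPKM in exercise 1 to 4 (limma adjusted p = 0.00395). Like Lum, it was higher in every exercise library. Of 6 mural cell markers 3 had a read, at sums of 17.0 to 92.2 FPKM in control and 55.0 to 97.5 in exercise, and Rgs5, Cspg4 and Kcnj8 had none. Myh11, a myosin of smooth muscle, rose in the same libraries as Lum, with no read in any control library and 70.1, 71.5, 35.6 and 3.14 FPKM in exercise 1 to 4 (limma adjusted p = 0.00646). The other mural markers with a read, Acta2 and Des, had negative log2 fold changes, with overlap between the groups. These were -1.96 for Acta2 (limma adjusted p = 0.220) and -0.61 for Des (limma adjusted p = 0.551), neither past the threshold. Blood markers were at 0 except Hbb-bs (1 of 8). The part of any of these cells in the values of Lum, Dcn or the other members was not tested.

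For each member the genes with the most similar profile were sought by the root mean square difference of log2(FPKM + 1), centred on each gene's mean over the 8 libraries. Zfp36, Ubb and Abca8a were nearest to Dcn (0.21, 0.22 and 0.27), and Glul, Sptan1 and Hmgcs1 to Lum (0.25, 0.29 and 0.30). Serping1, an inhibitor of complement, lay at 0.21 from Fmod, and Scara5 at 0.30 from Prelp. Nearest to Bgn was Egr1 (0.25), to Aspn Coq10b (0.13) and to Ogn Fxr2 (0.16). Among members, Bgn and Aspn were nearest to each other (0.39), as were Fmod and Prelp (0.91) and Dcn and Ogn (1.05). Lum was no closer than 1.06 to any. Every one of these members lay closer to a gene outside the group. Adding 1 FPKM shrinks differences among low genes. Sptan1 had 0 to 0.192 FPKM in control and 1.62 to 4.30 in exercise, and Fxr2 at most 1.80 outside control 1. Both of these matches therefore lie near the floor. Some libraries resemble each other and all differ in depth, so these distances describe the 8 libraries only.

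**Figure D5:**
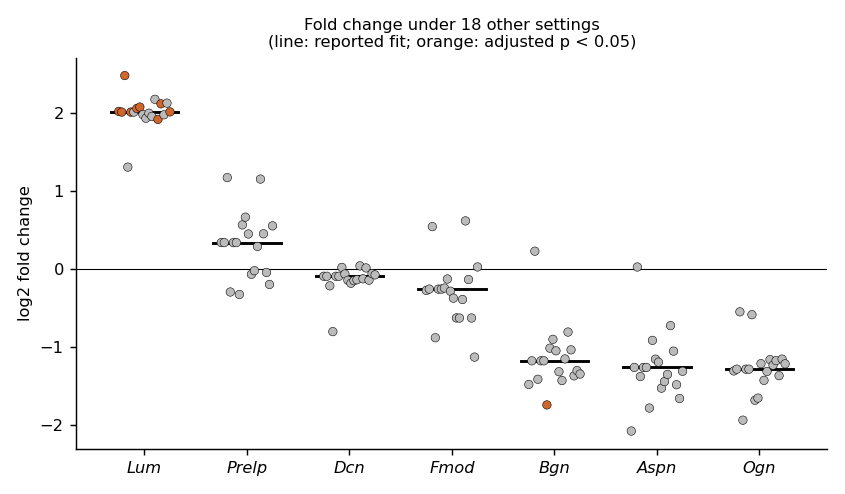
Log2 fold change of each member (vertical axis, exercise over control) in the reported fit (black line) and in 18 other settings (points, orange where the adjusted p is under 0.05). Lum stays above 0 at 1.31 to 2.49, Bgn is called in 1 other setting, and the points of Dcn, Fmod, Prelp, Bgn and Aspn lie on both sides of 0.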

How the data were processed

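RNA of sorted cells labelled as SCs was sequenced as 4 control and 4 exercise libraries. The values the authors deposited are FPKM, by gene, for the 8 libraries. Per the methods, they aligned reads with bowtie 0.12.9, computed FPKM with Cufflinks 2.1.1 and counted reads with HTSeq. The build in the submitters' processing notes is mm10. Each value times gene length was a whole multiple of 1 step per library in 100.0% of values above 0 (tolerance 0.001), which gave the reads. Rows that share a symbol were summed (101 rows fewer).

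The fit used limma 3.58.1 (R 4.3.3; lmFit, then eBayes with trend) on log2(FPKM + 1) of every gene averaging 1 FPKM or more, with Benjamini-Hochberg adjustment over 4328 genes and a threshold of 0.05. A fold change on this scale understates that of low genes. For single genes, all 70 assignments of libraries gave an exact two-sided permutation p, in Python 3.11.15 with scipy 1.17.1. The fit was tested on simulated data. Depth sets the precision: a count of 0 allows up to 3 reads, and this limit covers counting error alone, because reads from amplified cDNA do not each stand for a molecule.

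The members, gene lists and tests were chosen with earlier results of these data known. The text names the 8 members, other family genes, called genes of the lists and those needed to describe a list and, for each member, up to 3 genes of most similar profile. Alternatives were a pseudocount of 0.1, no filter, quantile normalization, an equal FPKM sum, no trend, the replicate number as a block, and leaving out each library. Added after seeing the data were scaling to reads outside the mitochondrial genome, exercise 1 and 2 averaged, the same without control 4 and exercise 3, voom on the recovered reads, and ratios to Dcn. No aligned reads, splice forms or strand were analysed here; the strand of counting is not given in the sources used here.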

Additional observations from a re-analysis of the deposited data

Results flagged for a closer look

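Dcn in exercise 3, at 1065 FPKM, lay far from the other exercise libraries, which had 1504 to 1581, with 0.852 of the group's range between it and the nearest of them. It was 1 of 14 groups of 4 libraries examined over the members, where chance marks about 1 in 20. Lum was also lowest in exercise 3, at 311 FPKM, and its ratio to Dcn there (29.2%) lay within those of the other exercise libraries (28.5% to 35.3%).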

How the results depend on the processing

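Across 9 results, 162 values were recomputed under 18 settings, and 14 changed sign, none of them of a called value. The count of called genes was 1541, and 840 with no filter, 941 with quantile normalization (566 higher and 375 lower, against 380 and 1161), 603 when exercise 1 and 2 counted as 1 averaged sample, and 0 in limma when control 4 and exercise 3 were dropped too (451 at an unadjusted p under 0.05), a fit of 5 samples; without 1 library it ran from 531 (without exercise 3) to 1890 (without control 1). Members called numbered 1, and 0 with an equal FPKM sum, with the replicate block, and in both fits that averaged exercise 1 and 2, and 0 to 2 without 1 library. Lum kept its direction in all 18 settings, at 1.31 with an equal FPKM sum, 2.02 with the replicate block (adjusted p = 0.0782), 1.98 when exercise 1 and 2 counted as 1 sample, 2.13 when control 4 and exercise 3 were dropped too, and 1.92 to 2.18 without 1 library, and lost its call in 9. Bgn went to 0.23 with quantile normalization and ran from -1.75 (called, without control 1) to -0.81 without 1 library. Aspn went to 0.026 with quantile normalization and -2.08 with a pseudocount of 0.1, and ran from -1.79 (adjusted p = 0.0618, without control 1) to -0.73 (without exercise 4). Dcn went to 0.014 when scaled to reads outside the mitochondrial genome, and to 0.020 without control 1 and 0.040 without exercise 3 (lowest without 1 library -0.18). Fmod went to 0.54 with quantile normalization, 0.026 with voom, and -0.63 to 0.62 without 1 library. It was -0.88 with an equal FPKM sum, and -1.13 with exercise 1 and 2 averaged and control 4 and exercise 3 dropped. Prelp went to -0.30 with an equal FPKM sum, -0.044 when exercise 1 and 2 counted as 1 sample, -0.20 when control 4 and exercise 3 were dropped too, -0.068 and -0.022 without exercise 1 and 2, and -0.33 to 1.16 without 1 library. Ogn stayed negative throughout, from -1.94 with an equal FPKM sum to -0.55 with quantile normalization. The cause of these changes was not tested. The median of all genes tested moved from -1.42 to -0.44 with quantile normalization and -1.69 with an equal FPKM sum; relative to it Lum lay 3.43, 2.93 and 3.0 higher. Libraries with the same number did not deviate together (r from -0.017 to 0.039), so the replicate block pairs nothing; it called 1059 genes. A count of 0 allows 4.42 FPKM of Aspn in exercise 4 and 0.762 to 1.15 in exercise 1 to 3, although exercise 4 does not have the fewest reads on genes. In exercise 4, 1 read stands for more FPKM than in any other library, which limits what can be seen of Bgn and Aspn there.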
